A study of Salmo salar with 8 samples.

Results

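The genes described here are enzymes and enzyme regulators that break down amino acids, followed in adherent head kidney leukocytes (HKLs) of Atlantic salmon between Day 5 and Day 1 of culture. They are the 24 genes that the study listed under the Gene Ontology term for the catabolism of cellular amino acids, with every probe that carries one of their symbols among the probes the study called differentially expressed. By symbol 23 of the 24 genes had a probe, 14 of them 1 probe and 9 more than 1, which gave 34 of the 43689 probes of the array. The whole list of differentially expressed probes carries 1449 gene symbols. No probe carried the symbol of the remaining gene, RIDA, but 1 probe named UK114, an older name of that protein, had RIDA as its closest protein match and is given beside the members.

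The study sampled cells of 4 fish at 120 h (Day 5) and at 24 h (Day 1) after seeding, with 1 sample per fish and day. Leukocytes were taken from the head kidney, where teleost fish make their blood cells, by a Percoll gradient, and both days shared the same L-15 medium with fetal bovine serum and antibiotic. Cells that had not attached were rinsed off before each sampling and when the medium was renewed, so both groups are what adhered to the plastic and not a purified cell type. Cy5-labelled RNA of each sample was hybridised with a common reference, the pooled RNA of all samples in Cy3. The values below are log2 ratios of the sample to that reference, so that a difference between the days is free of the reference.

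Amino acids are taken apart in a few steps: the nitrogen is moved to another molecule or set free, and the carbon skeleton is cut into pieces that enter the tricarboxylic acid cycle or become acetyl groups. Most of these pathways are best known from the liver and the kidney, yet in mammals several of them also act in macrophages, where arginase competes with nitric oxide synthase for arginine, and where the kynurenine pathway and the amino acid oxidase IL4I1 remove amino acids that lymphocytes need. The oxidation of proline and the branched chain amino acids takes place in mitochondria and feeds energy metabolism.

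At Day 5, 18 of the 23 genes were higher than at Day 1, with a median log2 fold change of 1.21, and 5 were lower, with log2 fold changes between -1.38 (ARG1) and -1.13 (MTRR). Those described below ran from 0.64 (GCDH) to 2.52 (IL4I1). The pathways of glutamate, aspartate and asparagine, lysine (2 genes), histidine and histamine (2 genes) and phenylalanine and tyrosine (2 genes) were represented by genes that were all higher. Tryptophan, the branched chain amino acids, glycine, and arginine with proline each had genes on both sides: AFMID, BCKDK, AMT and ARG1 were lower while the other members of their pathways were higher. The methionine pathway was represented by MTRR, which was lower. For histidine breakdown itself the only probe was that of AMDHD1, whose name is uncertain, as given below. No gene of the lysine, histidine and histamine, branched chain, or arginine and proline pathways passed the test described below. These directions are a description, because membership was chosen on this very difference, in the study's own processed log2 ratios. In those values all 34 probes differed by more than 2-fold, the smallest mean differences of a probe being 1.05 (GCDH) and 1.06 (IVD) and the largest 2.85 (IL4I1), all on the log2 scale. Probes of the same genes just under that size carry no name in the sources used here.

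**Figure D1:**
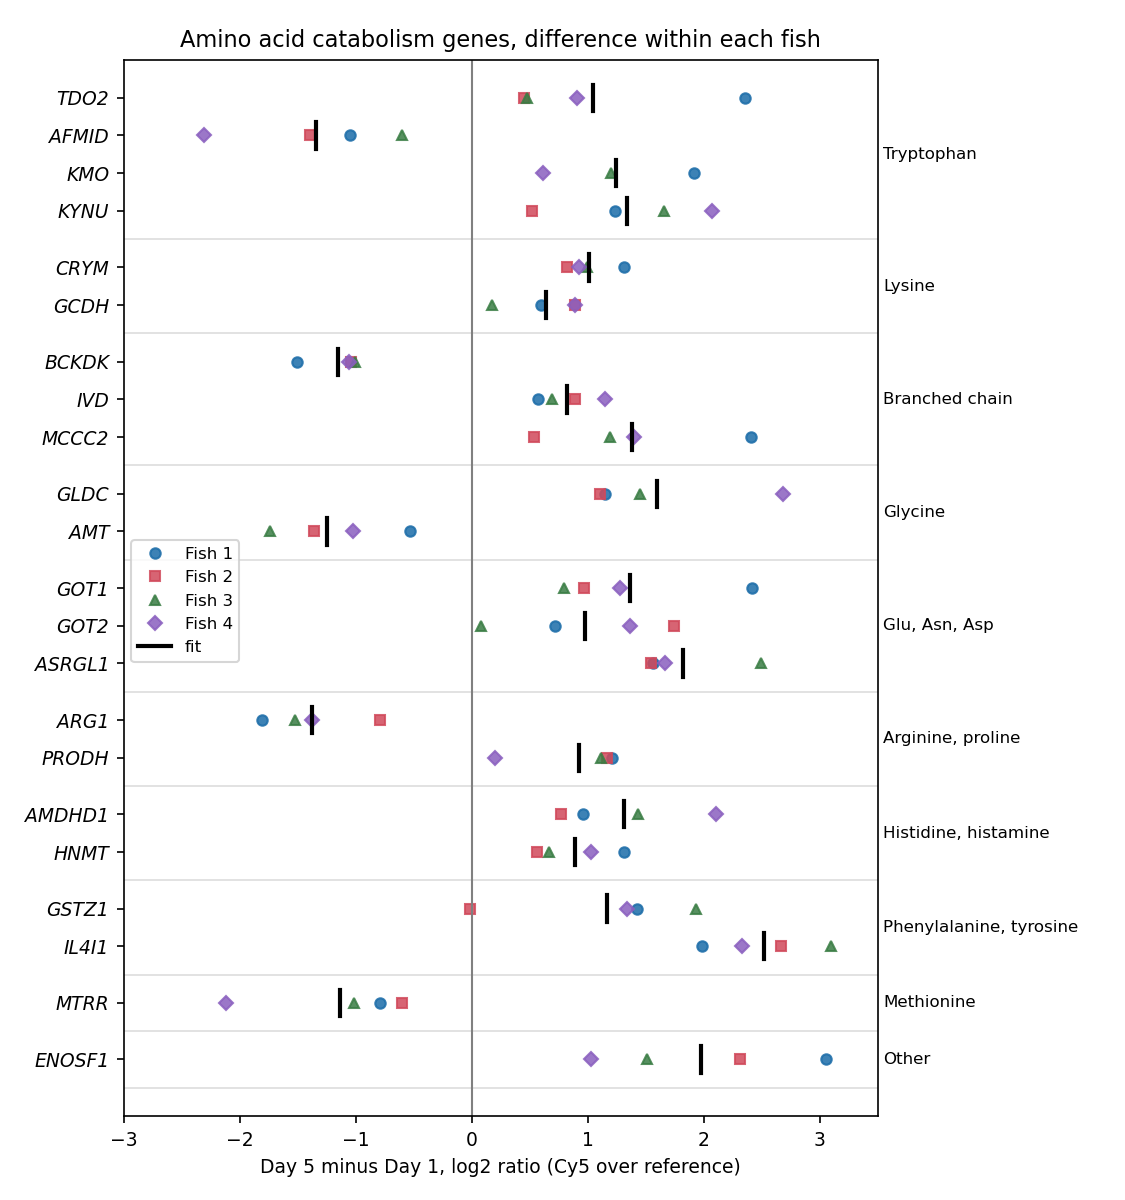
Day 5 minus Day 1 of the log2 ratio (x axis) for 22 of the 23 genes, grouped by pathway, with 1 symbol per fish and a black bar at the value of the fit. All points of ARG1, BCKDK, AMT, AFMID and MTRR lie left of 0, and all points of the other genes shown lie right of it except GSTZ1 in Fish 2 (-0.01). KMO has no point for Fish 2.

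Here the scanner intensities were processed anew and all probes were fitted with limma, with fish as a block. Of the 34 probes, 7 passed an adjusted p of 0.05, which is 20.6% of them, against 2.03% of all 38695 tested probes. The 5 higher ones belonged to IL4I1, ASRGL1, ENOSF1, GLDC and KYNU, beside 1.09% of all tested probes that were called higher. The other two, beside 0.936% called lower, belonged to MTRR and AFMID. The values of the 2 days did not overlap for 26 of the 34 probes (76.5%), against 11.3% of all tested probes, and the median size of the log2 fold change was 1.23 for the 34 probes and 0.32 for all. Nothing is read from these shares, since the same contrast chose the members. The calls themselves were few and moved with single fish: 7 of the 34 probes passed without Fish 1, 5 without Fish 2, 2 without Fish 3 and 3 without Fish 4, and none (0) passed when the background was subtracted plainly or the normexp offset was 10.

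A probe is called above background here where its Cy5 intensity exceeded a limit taken from the 153 negative control spots of the array, their mean plus 2 SD. By that limit 22 of the 34 probes were above background on all 8 arrays. Their brightness is shown because it sets how much of a change an array can register: the median Cy5 intensity of a probe over the limit ran from 0.786 to 16.2 at Day 5 and from 0.764 to 21.0 at Day 1. 2 probes, 1 of them of MTRR, were under the limit on all 4 Day 5 arrays, and no member probe was under it on all 4 Day 1 arrays. Across the 8 arrays the median Cy5 intensity ran from 175.7 to 593.6, the share of probes above the limit from 40.4% to 51.3%, and the share of flagged spots from 4.44% to 11.9%. The array with the lowest median Cy5 intensity was that of Fish 1 at Day 1. It also had the lowest mean of the negative controls (36.8) and the largest share of probes above the limit. The Day 5 array of Fish 1 had the highest mean of the negative controls (457.6) and the smallest share above the limit. Its median Cy3 intensity was 90.8, against 206.1 to 275 on the other arrays. Precision is set by the few arrays: a change is the mean of at most 4 differences within fish.

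**Figure D2:**
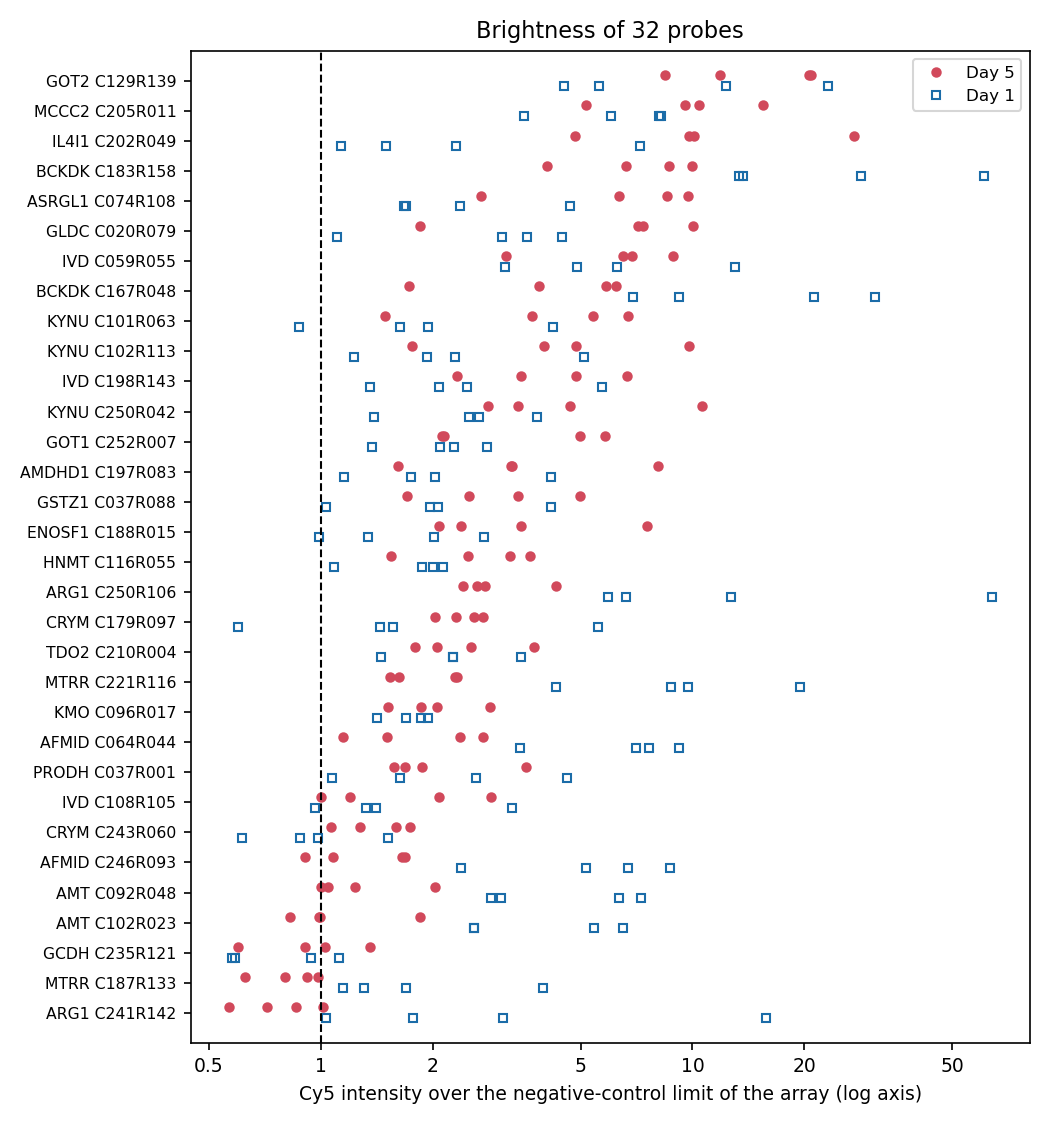
Cy5 intensity of 32 of the 34 probes divided by the negative-control limit of the array (log axis), with 4 Day 5 arrays as filled circles above 4 Day 1 arrays as open squares, and the limit as a dashed line at 1. Probes are sorted by their Day 5 median, from GOT2 (16.2) at the top to ARG1 C241R142 (0.786) at the bottom. The lower genes, such as BCKDK, MTRR and AFMID, have their Day 1 squares right of their Day 5 circles. That placing is no mark of the lower genes, since the limit differs between arrays and Cy5 alone is not set against the reference. In Fish 1 the limit was 159.2 at Day 1 and 692.6 at Day 5. There IL4I1 (7.24 at Day 1, 4.83 at Day 5) and GOT2 (23.1 and 8.43) also lay further over the limit at Day 1. Their Cy5 intensity itself was higher at Day 5, with 1153 and 3348 for IL4I1, and 3685 and 5837 for GOT2. The median of PRODH over the limit was 2.12 at Day 1 and 1.78 at Day 5, although its Cy5 intensity was higher at Day 5 in every fish. The nearest square and circle almost meet at the limit on ARG1 C241R142 (1.03 and 1.01). They also lie close together on MTRR C187R133 (1.15 and 0.98) and BCKDK C167R048 (6.90 and 6.22).

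The cells on the plates were a mixture. Of the marker lists, 6 of 7 macrophage genes were measured by name, all 6 were higher and passed the test, and their mean log2 ratio per array was 0.32 to 0.97 at Day 5 and -1.42 to -0.82 at Day 1. All 8 erythroid genes (7 passed) and all 6 T cell genes (1 passed) were lower, as were 4 of 5 B cell genes (all 4 passed). CD22 was higher and passed, but it was under the limit on all Day 1 arrays. Erythroid markers had a mean of -2.03 to -1.30 at Day 5 and of 0.02 to 1.22 at Day 1, and HBAD and GATA1 were under the limit on all Day 5 arrays. T cell markers had a mean of -1.46 to -0.38 at Day 5 and of 0.01 to 1.19 at Day 1, and B cell markers -1.44 to -0.76 at Day 5 and -0.34 to 0.25 at Day 1. Of 3 neutrophil genes measured, 1 was higher and 2 were lower (mean -0.91 to -0.46 at Day 5, -0.20 to 0.06 at Day 1), and both thrombocyte genes measured were lower (mean -1.08 to -0.33 at Day 5, -0.24 to 1.02 at Day 1), with CSF3R and ITGA2B under the limit on all Day 5 arrays. The marker genes were named from the same list of differentially expressed probes, so the lists are no independent check of the cell types. In such bulk samples, fewer cells of a type and less RNA per cell cannot be told apart, and the part of these shifts in the values of the amino acid genes was not tested.

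Coding sequence is shown for some of the members and for UK114, because the probe names rest on such contigs. The probes shown were chosen by name, so the contig of a member not shown may also hold a reading frame. Each line gives 120 bases, 5′ to 3′, of the contig from which the probe was designed. Capitals mark the ATG that opens the longest reading frame in the shown part of the contig, except in GLDC, where they mark the codon of the lysine that holds the pyridoxal phosphate cofactor.
KYNU: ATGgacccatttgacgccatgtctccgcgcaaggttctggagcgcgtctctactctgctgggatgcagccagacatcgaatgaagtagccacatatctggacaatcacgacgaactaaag
GLDC: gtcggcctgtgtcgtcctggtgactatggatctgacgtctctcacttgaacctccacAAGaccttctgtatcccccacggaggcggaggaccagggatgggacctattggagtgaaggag
CRYM: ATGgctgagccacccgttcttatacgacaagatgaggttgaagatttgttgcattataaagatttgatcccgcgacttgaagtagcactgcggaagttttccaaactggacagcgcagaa
IVD: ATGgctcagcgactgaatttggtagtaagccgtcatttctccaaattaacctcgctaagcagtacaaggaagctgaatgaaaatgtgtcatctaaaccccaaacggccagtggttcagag
HNMT: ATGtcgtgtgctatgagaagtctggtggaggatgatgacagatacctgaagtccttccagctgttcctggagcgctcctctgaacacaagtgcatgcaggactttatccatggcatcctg
UK114: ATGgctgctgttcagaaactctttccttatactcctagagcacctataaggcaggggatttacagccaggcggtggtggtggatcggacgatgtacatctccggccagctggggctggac
The names were checked where the shown part of the study's annotation allowed it, for 9 of the reported probes. The matched accession of 7 was found in the RefSeq gene table of the assembly Ssal_v3.1: KYNU, CRYM, IL4I1 and UK114 met the salmon genes kynu, crym, il4i1 and rida, whereas the ASRGL1, GLDC and IVD probes met si:dkey-103j14.5, LOC106585394 and zgc:85777. The contig of the IVD probe C198R143 had ACDH-6 as its closest protein, so the symbol of this probe is uncertain. The AMDHD1 probe had no protein match, and its closest nucleotide match was described as tetraspanin-like, so its symbol is uncertain as well.

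Tryptophan is broken down through kynurenine. TDO2 opens the ring of tryptophan, AFMID removes the formyl group and yields kynurenine, KMO hydroxylates kynurenine, and KYNU cleaves its side chain. TDO2, KMO and KYNU were higher at Day 5, and AFMID, which acts between TDO2 and KMO, was lower. Log2 ratios of TDO2 (C210R004) were 1.07, 0.63, 0.18 and 0.74 at Day 5 in Fish 1 to Fish 4, and -1.29, 0.17, -0.30 and -0.17 at Day 1. All Day 5 values lay above all Day 1 values, though those of Fish 3 at Day 5 (0.18) and Fish 2 at Day 1 (0.17) almost met, and the log2 fold change was 1.05 (SE 0.37). Fish 1 carried much of it, with a difference of 2.36, and without Fish 1 the log2 fold change was 0.61.

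AFMID had 2 probes. On C246R093 the log2 ratios were -1.29, -1.54, -0.87 and -1.25 at Day 5 in Fish 1 to Fish 4, against 0.02, -0.30, 0.05 and 1.58 at Day 1, a log2 fold change of -1.57 (SE 0.36). On C064R044 they were -1.06, -1.73, -0.40 and -0.39 at Day 5, against -0.26, -0.19, -0.11 and 1.41 at Day 1, a log2 fold change of -1.11 (SE 0.34). The Day 1 sample of Fish 4 stood far above the other Day 1 samples on both probes, and the mean of the probes was -1.02 without Fish 4, against -1.34 with all fish. C246R093 passed the threshold over all probes and C064R044 did not.

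KMO (C096R017) had log2 ratios of 0.60, 1.24, 0.62 and 0.49 at Day 5 in Fish 1 to Fish 4, and -1.32, -0.58 and -0.12 at Day 1 in Fish 1, Fish 3 and Fish 4. The Day 1 spot of Fish 2 was missing. The days did not overlap in the fish measured, and the log2 fold change was 1.24 (SE 0.39). KYNU was measured by 3 probes, all higher, with log2 fold changes of 1.50 (SE 0.35), 1.42 (SE 0.38) and 1.09 (SE 0.47). The probe with the largest one, C101R063, had log2 ratios of -0.14, 0.26, 1.49 and 0.86 at Day 5 and -0.88, -0.71, -0.63 and -1.31 at Day 1, and it alone passed the threshold. Its differences were larger in Fish 3 (2.12) and Fish 4 (2.16) than in Fish 1 (0.74) and Fish 2 (0.97). C250R042 was nearly level in Fish 2, with -0.21 at Day 5 and -0.28 at Day 1, and C102R113 lacked the Day 1 values of Fish 2 and Fish 4.

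**Figure D3:**
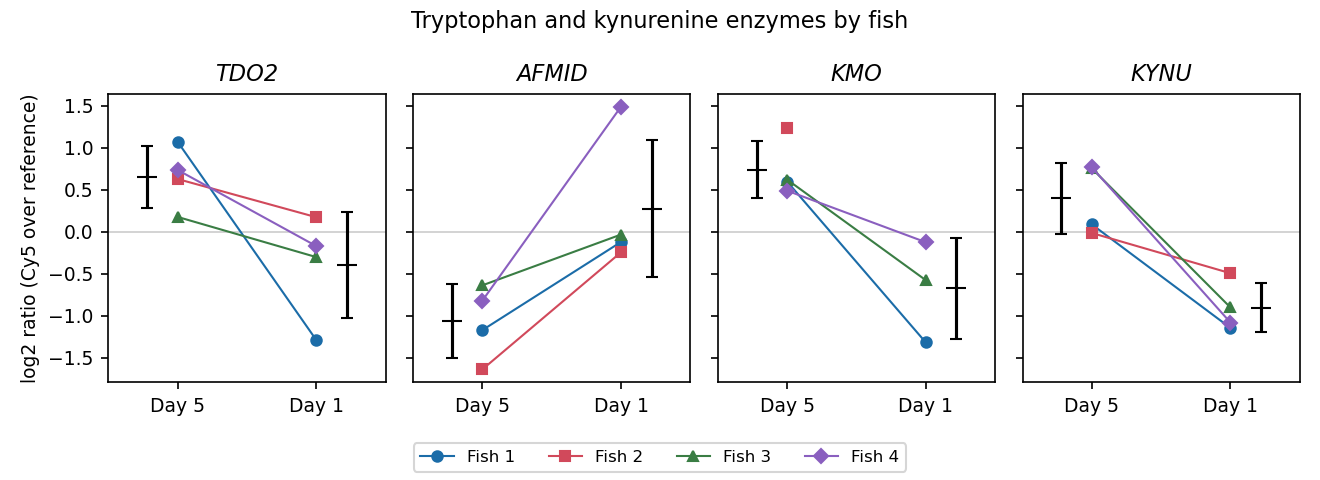
Log2 ratio of Cy5 over the reference (y axis) at Day 5 and Day 1 for 4 genes of tryptophan breakdown in pathway order, each the mean of its probes, with 1 line per fish and bars for the mean and SD of a day. TDO2, KMO and KYNU are higher at Day 5 in every fish measured, AFMID is lower in all 4, and the Day 1 value of AFMID in Fish 4 (1.49) stands apart. The Day 1 value of KMO in Fish 2 is missing.

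Lysine was represented by CRYM and GCDH. CRYM, mu-crystallin, reduces cyclic imines formed from lysine in mammals and also binds thyroid hormone, and GCDH oxidises glutaryl-CoA, into which lysine, hydroxylysine and tryptophan run together. On the CRYM probes the log2 fold changes were 1.04 (SE 0.31) and 0.99 (SE 0.33), and their mean per sample was 0.98, 0.27, 0.32 and 0.14 at Day 5, against -0.34, -0.56, -0.67 and -0.78 at Day 1. As the mean of its probes, CRYM had the smallest spread over fish of the higher genes, with an SD of the differences of 0.21. On the single probes the SD was 0.47 (C179R097) and 0.61 (C243R060). The first had its largest difference in Fish 4 (1.69), and the second had its largest in Fish 1 (1.62) and its smallest in Fish 4 (0.16). The days overlapped on C179R097, and C243R060 was above the negative-control limit on 1 of 4 Day 1 arrays. GCDH (C235R121) was dim, above the limit on 2 Day 5 arrays and 1 Day 1 array. Its log2 ratios were 0.03, 0.53, -0.38 and 0.13 at Day 5 and -0.57, -0.36, -0.55 and -0.76 at Day 1, which overlap through Fish 3, and the log2 fold change was 0.64 (SE 0.30).

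For the branched chain amino acids, the gene of the inhibitory kinase was lower and those of enzymes further down were higher. BCKDK is the kinase that phosphorylates and inactivates the branched chain ketoacid dehydrogenase, the committing step for leucine, isoleucine and valine. Its 2 probes gave log2 fold changes of -1.26 (SE 0.31) and -1.03 (SE 0.30), and their mean was -0.92, -0.99, -0.15 and -0.44 at Day 5 in Fish 1 to Fish 4, against 0.59, 0.05, 0.85 and 0.62 at Day 1. The days did not overlap, and Fish 1 had the largest difference (-1.50). The other fish lay close together only in that mean. In Fish 2, Fish 3 and Fish 4 the differences were -1.23, -0.78 and -1.35 on C167R048, and -0.85, -1.22 and -0.76 on C183R158. Both probes were above the limit on every array, and neither passed the threshold over all probes.

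IVD and MCCC2 act further down the leucine pathway: IVD oxidises isovaleryl-CoA, and MCCC2 is a subunit of the carboxylase that takes up its product. IVD had 3 probes, with log2 fold changes of 1.28 (SE 0.31) for C198R143, 0.66 (SE 0.30) for C059R055 and 0.53 (SE 0.31) for C108R105. The largest belonged to the contig whose closest protein was ACDH-6. Averaged over the probes, IVD was -0.03, 0.34, 0.00 and 0.52 at Day 5 and -0.60, -0.55, -0.69 and -0.62 at Day 1, so that the Day 1 samples were nearly the same (SD 0.06, n = 4). MCCC2 (C205R011) had 0.87, 0.29, 0.61 and 0.88 at Day 5 and -1.54, -0.25, -0.58 and -0.52 at Day 1, a log2 fold change of 1.39 (SE 0.35). The Day 1 sample of Fish 1 was the lowest, and without Fish 1 the log2 fold change of MCCC2 was 1.04.

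Glycine is taken apart by the mitochondrial glycine cleavage system, of which GLDC is the decarboxylase (P protein) and AMT the aminomethyltransferase (T protein). These 2 partners of one complex went in opposite directions. GLDC (C020R079) had log2 ratios of -0.13, 0.63, 0.58 and 1.35 at Day 5 in Fish 1 to Fish 4, and -1.28, -0.47, -0.86 and -1.34 at Day 1. It was higher in all 4 fish without overlap between the days, most in Fish 4 (2.68), with a log2 fold change of 1.60 (SE 0.34). AMT (C092R048) had -0.46, -1.56, -0.999 and -0.32 at Day 5 and 0.07, 0.22, 0.91 and 0.58 at Day 1, a log2 fold change of -1.28 (SE 0.34). The other AMT probe, C102R023, gave -1.22 (SE 0.36), lacked the Day 5 value of Fish 1, and was above the negative-control limit on 1 of 4 Day 5 arrays.

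**Figure D4:**
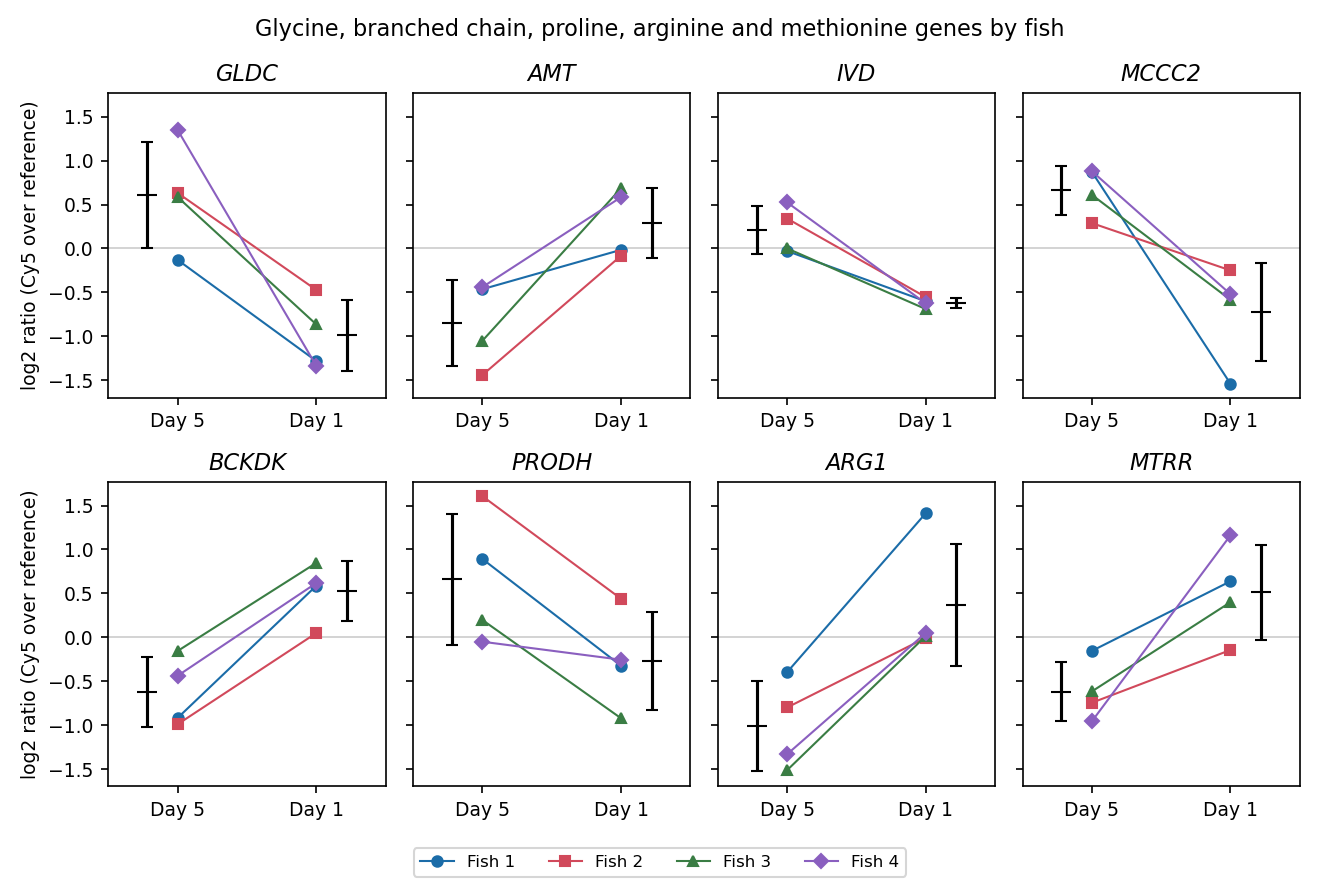
Log2 ratio of Cy5 over the reference (y axis) at Day 5 and Day 1 for 8 genes, each the mean of its probes, with 1 line per fish and bars for the mean and SD of a day (n = 4). GLDC, IVD, MCCC2 and PRODH slope down to Day 1, while AMT, BCKDK, ARG1 and MTRR slope up in all 4 fish. As a mean of its probes, which differ for the other fish, the Day 1 value of ARG1 in Fish 1 (1.41) lies far above the others.

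The genes described for glutamate, aspartate and asparagine were all higher. ASRGL1, which hydrolyses asparagine and isoaspartyl peptides, had the clearest separation: its probe C074R108 read 0.10, 0.18, 0.91 and 0.49 at Day 5 and -1.47, -1.36, -1.59 and -1.18 at Day 1. The gap between the days was far wider than the spread within either, and the log2 fold change was 1.82 (SE 0.31). GOT1 and GOT2, the cytosolic and the mitochondrial aspartate aminotransferase, exchange nitrogen between glutamate and oxaloacetate. GOT1 (C252R007) had log2 ratios of 0.72, 0.58, -0.05 and 0.79 at Day 5 and -1.70, -0.39, -0.84 and -0.50 at Day 1, a log2 fold change of 1.37 (SE 0.34) that was 1.02 without Fish 1. GOT2 (C129R139) had 0.22, 0.49, -0.21 and 0.49 at Day 5 and -0.49, -1.26, -0.29 and -0.88 at Day 1, a log2 fold change of 0.98 (SE 0.34). In Fish 3 the GOT2 values of the 2 days differed by 0.08 only.

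ARG1 cleaves arginine to ornithine and urea, and in mouse it marks alternatively activated macrophages. Its probe C250R106, above the limit on all arrays, had log2 ratios of -0.15, -0.57, -1.21 and -1.47 at Day 5 and 1.61, -0.17, 0.40 and 0.52 at Day 1. All 4 fish were lower at Day 5, but the days overlapped between the Day 5 sample of Fish 1 and the Day 1 sample of Fish 2, and the log2 fold change was -1.44 (SE 0.34). C241R142 read -0.64, -1.03, -1.82 and -1.19 at Day 5 and 1.21, 0.16, -0.37 and -0.42 at Day 1, a log2 fold change of -1.32 (SE 0.31), and only 1 of its 4 Day 5 spots was above the limit. Neither probe passed the threshold over all probes. The 2 probes ranked the Day 1 samples differently below Fish 1, which was highest on both, and without Fish 1 the mean of the probes was -1.23, against -1.38 with all fish. PRODH, which starts the oxidation of proline, was higher: C037R001 had 0.89, 1.61, 0.20 and -0.05 at Day 5 and -0.32, 0.44, -0.92 and -0.25 at Day 1, with a log2 fold change of 0.93 (SE 0.32). The days overlapped for PRODH, and in Fish 4 the difference was 0.20.

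Among histidine genes, the probe named AMDHD1 (C197R083), after the imidazolonepropionase of histidine breakdown, had 0.47, 0.68, 0.86 and 1.84 at Day 5 and -0.48, -0.09, -0.57 and -0.27 at Day 1, a log2 fold change of 1.32 (SE 0.33), with the doubt on its name given above. HNMT methylates and so inactivates histamine. Its probe C116R055 had 0.03, 0.20, 0.25 and 0.47 at Day 5 and -1.28, -0.37, -0.42 and -0.56 at Day 1, and the log2 fold change was 0.89 (SE 0.30). Both were higher in all 4 fish without overlap, and neither passed the threshold.

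IL4I1, a secreted oxidase that in mammals acts on phenylalanine and other aromatic amino acids, had the largest change of all members. C202R049 read 0.46, 1.25, 0.46 and 0.08 at Day 5 in Fish 1 to Fish 4, and -1.53, -1.42, -2.64 and -2.26 at Day 1. The lowest Day 5 value lay well above the highest Day 1 value, the differences ran from 1.99 in Fish 1 to 3.10 in Fish 3, and the log2 fold change was 2.52 (SE 0.31). GSTZ1 isomerises maleylacetoacetate near the end of the tyrosine pathway. Its probe C037R088 had 0.65, -0.40, 1.22 and 0.11 at Day 5 and -0.77, -0.39, -0.72 and -1.23 at Day 1, a log2 fold change of 1.17 (SE 0.36). GSTZ1 was the one gene that was not alike in all fish, with a difference of -0.01 in Fish 2.

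MTRR reactivates methionine synthase, and so serves the making of methionine more than its breakdown. C221R116 had log2 ratios of -0.64, -0.83, -0.99 and -1.41 at Day 5 and 0.63, 0.11, 0.57 and 1.70 at Day 1, a log2 fold change of -1.72 (SE 0.38), largest in size in Fish 4 (-3.11). The second probe, C187R133, gave -0.54 (SE 0.31) with overlap between the days, and was under the limit on all Day 5 arrays and above it on all Day 1 arrays. Its Day 5 signal was thus not well above background, and no bound is given for its log2 fold change. With a range of 1.19 between its probes, MTRR was the gene whose probes differed most.

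ENOSF1, a mitochondrial enzyme related to the enolases, had 0.71, 1.14, 0.68 and -0.45 at Day 5 and -2.35, -1.17, -0.83 and -1.47 at Day 1 on C188R015. All Day 5 values were above all Day 1 values, and the log2 fold change was 1.98 (SE 0.37). The UK114 probe C126R166, the addition outside the rule, stands for the deaminase that clears reactive imines left by other amino acid enzymes. It had -0.66, 0.82, 0.62 and 1.76 at Day 5 and -2.33, -1.47, -1.55 and -0.90 at Day 1. The log2 fold change was 2.20 (SE 0.31). The probe was under the limit on all Day 1 arrays, so that its Day 1 signal was not well above background. At Day 5 it was above the limit on 3 of 4 arrays, and under it in Fish 1. Set against the lowest Cy5 signal above the limit on those arrays, its Cy5 signal was at least 3.7-fold higher at Day 5. This bound averages all Day 5 arrays, that of Fish 1 included. It uses normalized Cy5 values alone, from which differences in brightness between arrays are not removed by the reference. It is therefore no bound on the log2 fold change. The same calculation put the Cy5 signal of MTRR C187R133 at least 1.7-fold lower at Day 5, more than its fitted log2 fold change of -0.54.

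The probes of a gene went the same way for all 9 genes with more than 1 probe. The range between the probes of a gene had a median of 0.23 on the log2 scale and was under 0.5 for 7 of the 9 genes, the exceptions being MTRR (1.19) and IVD (0.74). Probes of a gene share its transcript, or transcripts of near-identical copies, which are common in the salmon genome, and are not replicates of the comparison.

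**Figure D5:**
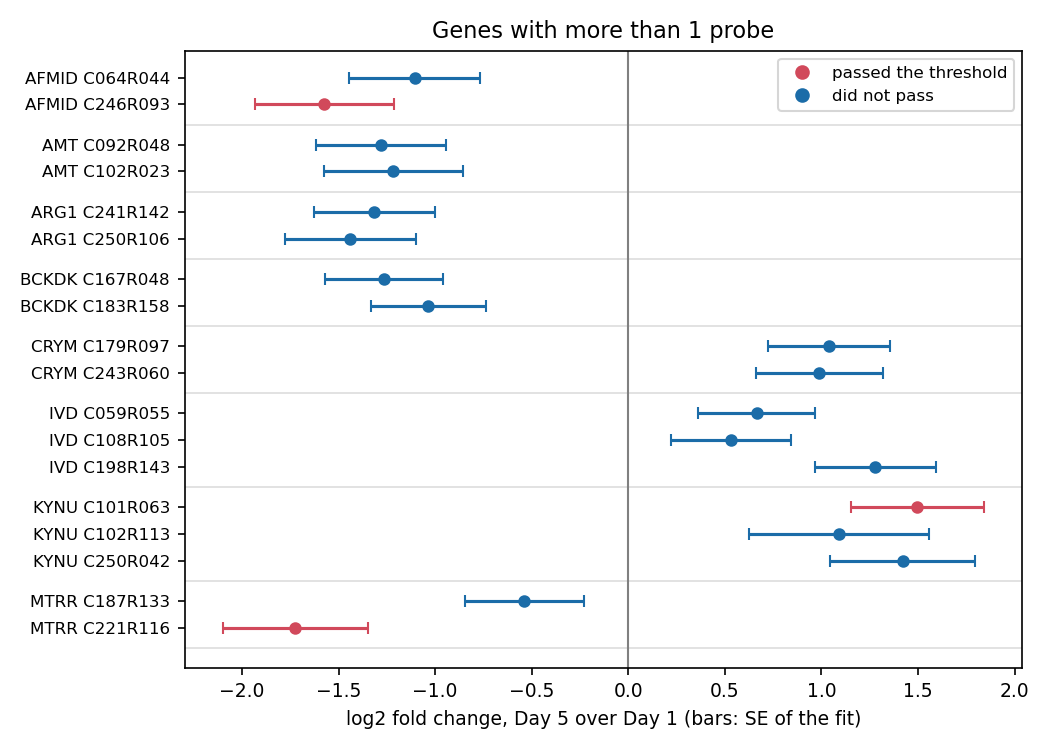
Log2 fold change of Day 5 over Day 1 (x axis) for each probe of 8 of the 9 genes with more than 1 probe, with the SE of the fit as bars and the probes that passed an adjusted p of 0.05 in red. Probes of a gene lie on the same side of 0, and MTRR and IVD have the widest range (1.19 and 0.74).

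The size of the differences varied between fish, with 1 array per fish and day and no test between fish. Over the 18 higher genes the median difference was 1.31 in Fish 1, 0.89 in Fish 2, 1.16 in Fish 3 and 1.22 in Fish 4, and over the 5 lower genes it was -1.05, -1.04, -1.02 and -1.38. By gene values, the Day 1 sample of Fish 2 was the highest Day 1 sample for 12 of the 18 higher genes and the lowest for 5 of the 5 lower genes. In those gene values it was the Day 1 sample nearest to the Day 5 values. Single probes of the lower genes did not all keep that rank. Fish 1 was lowest at Day 1 on AFMID C064R044 (-0.26, Fish 2 -0.19) and AMT C092R048 (0.07, Fish 2 0.22). On ARG1 C241R142 it was Fish 4 (-0.42, Fish 2 0.16). On the other probes of the lower genes Fish 2 was lowest. The Day 1 sample of Fish 1 was the lowest Day 1 sample for 8 of the 18 higher genes, among them TDO2, KMO, MCCC2, GOT1, ENOSF1 and HNMT. Its array had the lowest median Cy5 intensity, and the Day 5 array of Fish 1 had the lowest median Cy3 intensity and the highest background in the negative controls. The part of array brightness and background, on either array of Fish 1, in its differences was not tested. The slide of an array was taken from a number in the name of its scanned image. By that number, both arrays of Fish 1 shared a slide, as did both of Fish 3, while those of Fish 2 and Fish 4 lay on different slides. The Day 5 arrays of Fish 2 and Fish 4 lay together on a slide that held no Day 1 array of these 4 fish. In those fish, day and slide cannot be told apart. All 23 genes had the sign of the fit in Fish 1 and in Fish 3, and the median difference of the higher genes was 1.36 within slides and 0.995 across them, and -1.13 and -1.19 for the lower genes.

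Beyond the members, 84 further genes of the same pathways were on the lists, among them the lysine, leucine and kynurenine enzymes between those described. Since the scanner files give no gene names, only 2 of the 84 could be found by name among the differentially expressed probes, and neither passed the threshold here. CTH, which releases cysteine from cystathionine, had log2 ratios of -1.06, 0.74, -0.35 and -0.17 at Day 5 and -0.88, -0.65, -0.97 and -1.23 at Day 1, higher in 3 of 4 fish, with a log2 fold change of 0.72 (SE 0.34). The CTH probe was dim, above the negative-control limit on 2 of 4 Day 5 arrays and 2 of 4 Day 1 arrays. ODC1, which turns ornithine, the product of arginase, into putrescine, had -2.05, 0.01, -0.70 and -0.90 at Day 5 and -0.20, 0.43, 0.54 and 1.01 at Day 1. It was lower in all 4 fish, as ARG1 was, with overlap between the Day 5 sample of Fish 2 and the Day 1 sample of Fish 1, and the log2 fold change was -1.36 (SE 0.34). The other 82 were not analysed here.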

How the data were processed

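The authors scanned 8 two-colour arrays of 4 fish, read the spots with ImaGene, and deposited uncorrected intensity values of signal and local background, with a quality flag per spot (other than a measurement). Further deposited values are log2 ratios of 18108 probes, which the authors had background-corrected, loess-normalized and imputed. Their columns of fold changes and q-values were not used.

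The intensities went through limma 3.58.1 in R 4.3.3 (statmod 1.5.0): normexp (offset 50) on signal mean and background median, then loess. Control spots, and spots flagged or not above local background by 2 SD, had weight 0. Flagged and dim spots were then set to missing, and 38695 probes with at most 2 of 8 values missing were tested with limma's lmFit and eBayes, fish being a block. Adjustment was by Benjamini-Hochberg (threshold 0.05). Each fish gave both samples, which pairs them. Deviations of the 2 samples correlated at -0.05, -0.08, 0.08 and 0.03 over 26008 probes. The procedure was tested on simulated data with the spread of the real ones. The changes added there were at least 2 in size on the log2 scale. Smaller changes, as in most member probes (median size 1.23), were not simulated. A gene value is the mean of its tested probes.

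The members, pathway lists and markers were chosen with earlier results of these data known. The 24 listed genes are named, except 1 whose values are not reported here although the totals include it, and other pathway genes would be where they passed. None did, and CTH and ODC1, the only ones found by name, are given outside that rule, chosen after their values were seen. Fish 5, which the authors left out, and the RT-qPCR were not analysed here.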

Additional observations from a re-analysis of the deposited data

Results flagged for a closer look

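In 2 of 47 groups of 4 samples, 1 sample lay far from the other three, which chance alone would give for about 1 group in 20. For ARG1 at Day 1, Fish 1 had a mean log2 ratio of 1.41, and the other fish lay between -0.01 and 0.05. That narrow range exists only in the mean of the probes. On single probes the other fish ran from -0.42 to 0.16 (C241R142, Fish 1 at 1.21) and from -0.17 to 0.52 (C250R106, Fish 1 at 1.61). For AFMID at Day 1, Fish 4 had a mean log2 ratio of 1.49, and the other fish lay between -0.24 and -0.03. Without those fish the log2 fold changes were -1.23 (ARG1, without Fish 1) and -1.02 (AFMID, without Fish 4), against -1.38 and -1.34 with all fish.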

How the results depend on the processing

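The choice of members fixes their directions: 18 of 23 genes were higher under every alternative (17 of the 22 genes left when no missing value was allowed). None (0) of 407 gene values changed sign and 14 moved by more than the spread between fish. Of these, 7 moved in the authors' processed log2 ratios (among them ARG1 -1.95, CRYM 1.83, GCDH 1.05, HNMT 1.37, IVD 1.32, UK114 3.83), 5 with median centring and 2 with the signal median. The 407 include 24 values that could not move. Their alternative, quantile normalization of average intensity between arrays, leaves the log2 ratios unchanged. Of all probes, 784 passed (5139 at an unadjusted p under 0.05), against 0 with plain subtraction (4217), 0 without background correction (4393), 0 with offset 10 (4463), 2 with the signal median (4042), 479 with flagged spots kept, 2676 with slide as a random block and 264 at a threshold of 0.01. Of the 34 member probes, 7 passed, against 0 with plain subtraction, without background correction, with offset 10 and with the signal median, 12 with scaling between arrays, 3 with flagged spots kept, 11 of 31 with no missing value, 24 with slide as a random block, 11 with the authors' processed log2 ratios and 1 at 0.01. Without the replicate block that pairs samples by fish, 12 member probes and 918 of all probes passed. Leaving out 1 fish gave 342 (without Fish 4) to 750 of all probes (365 without Fish 3), and 2 to 7 member probes. Of CTH and ODC1, 1 passed with median centring, with slide as a random block and without Fish 2 (range 0 to 1). Median centring turned the share of higher calls to 37.3% of 905, against 53.8% of 784, and shifted the median of all probes by -0.07. The causes were not tested. Dim spots limit the changes of GCDH, AMT C102R023, MTRR C187R133, ARG1 C241R142, CRYM C243R060, UK114 and CTH. Some member probes that passed were also dim on an array of their lower day. AFMID C246R093 was above the negative-control limit on 3 of 4 Day 5 arrays. KYNU C101R063 and ENOSF1 C188R015 were above it on 3 of 4 Day 1 arrays.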
